A study of Saccharomyces cerevisiae with 14 samples.

Results

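Wild-type yeast grown with 5 mM nicotinamide was compared with the same wild type grown without it. Of the 14 arrays of the series, 6 belonged to this comparison, chosen by their titles: 2 arrays of nicotinamide-treated cells, called A and B, and 4 arrays of untreated wild type, which the titles sort into an ML1 pair and an ML8 pair, each with arrays A and B. All 6 cultures were Saccharomyces cerevisiae of genotype MATa his3D200 leu2D1 met15D0 trp1D63 ura3-167 in log phase in rich YPD medium, so the treatment is what the labels give as different between the groups. The series also holds duplicate arrays of npt1, pnc1, bna1 and tna1 deletions in that genotype, each made with kanMX4, and the npt1 and pnc1 deletions were used below as second points of comparison. The series describes the duplicates as separate cultures, each hybridised to 1 Affymetrix Yeast Genome 2.0 array, and levels are log2 GCRMA signals. In total 5498 probe sets of 5449 S. cerevisiae genes were tested, and fewer cells with a transcript could not be told apart from less of that transcript per cell.

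Nicotinamide is the product that NAD+-dependent deacetylases, the sirtuins, release when they remove an acetyl group, and it inhibits these enzymes. In yeast, Sir2 silences the mating-type cassettes HML and HMR, chromosome ends and the ribosomal DNA, while Hst1, with Sum1 and Rfm1, represses genes of mid-sporulation and of NAD+ synthesis in growing cells. A haploid a cell that also expresses the alpha genes of HML forms the a1-alpha2 repressor, which shuts off haploid-specific genes, and alpha2 shuts off a-specific genes. The comparison addresses which transcripts change when nicotinamide is present during growth.

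In the fit across all 14 arrays with limma, 874 of 5498 probe sets (15.9%) passed a Benjamini-Hochberg adjusted p under 0.05. Of these, 488 (8.88%) were higher in nicotinamide and 386 (7.02%) were lower. At least 2-fold changes were called for 185 probe sets upward (3.36%) and 65 downward (1.18%), and 26 rose and 10 fell at least 16-fold. The balance of directions depended on scaling, with 455 higher and 568 lower after quantile normalization and 553 higher and 285 lower after median centring. Dropping nicotinamide array B gave 458 calls, and fitting the 6 arrays by themselves gave 533. Both nicotinamide arrays lay above all 4 wild-type arrays for all 488 higher calls and below them for 384 of the 386 lower calls, while over all probe sets 1818 (33.1%) did not overlap. Nicotinamide values are given for array A and then B, and wild-type values for ML1 A, ML1 B, ML8 A and ML8 B, all as log2 signal. Differences are nicotinamide minus wild type with the standard error of the limma contrast (n = 2 and n = 4 arrays). Standard errors and p-values rest on 1 spread per probe set, pooled within the 6 groups of all 14 arrays. They can therefore understate the spread of the nicotinamide cultures where these lie far apart. For FAR1 the SD was 2.16 between the nicotinamide arrays and 0.43 between the wild-type arrays, while the standard error was 0.63.

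**Figure D1:**
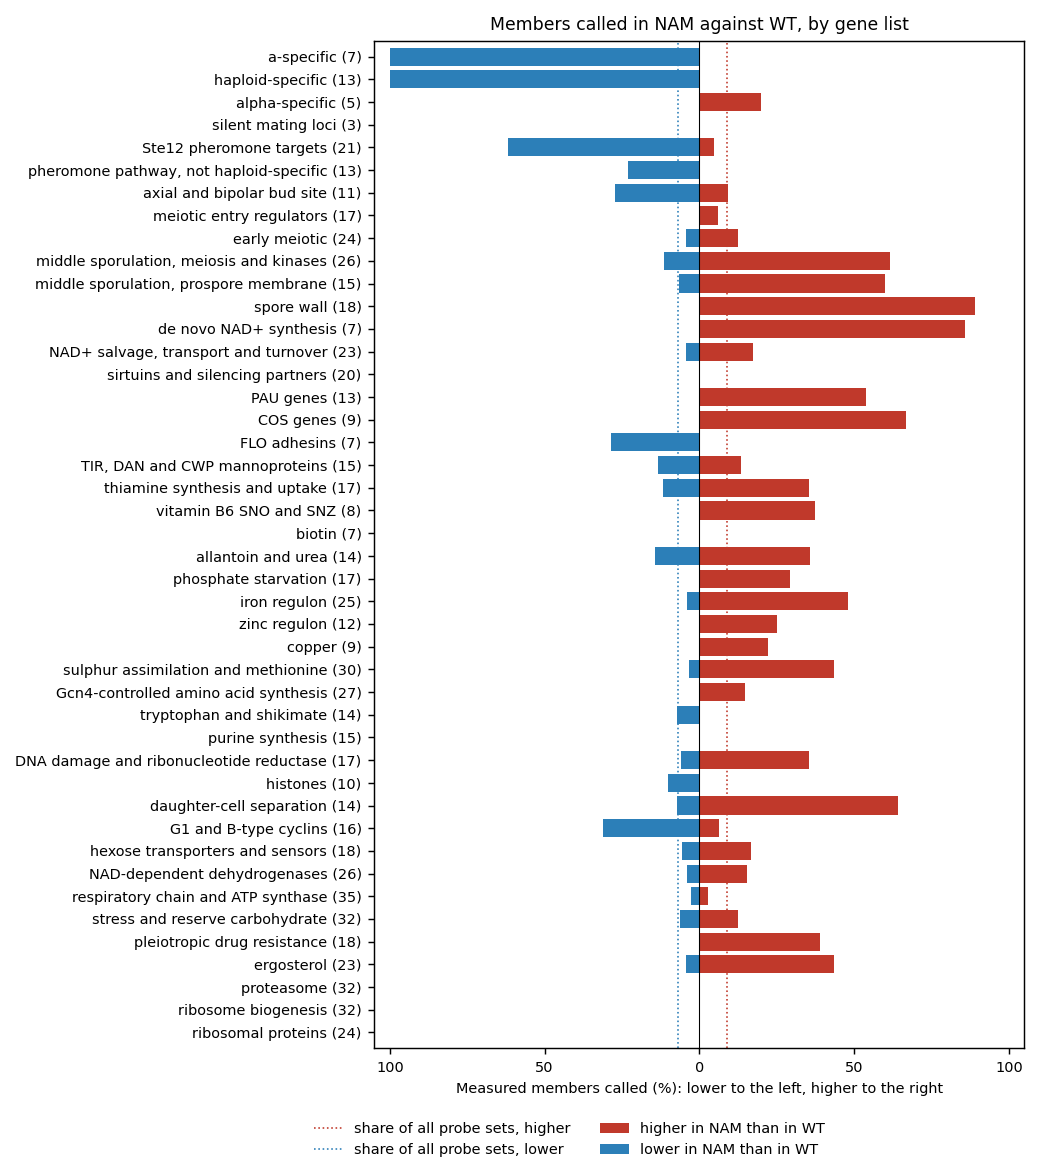
Percent of the measured members of each gene list called higher (red, to the right) or lower (blue, to the left) in 2 nicotinamide arrays against 4 wild-type arrays, with the number of measured members in brackets. Dotted lines mark the share over all probe sets, 8.88% higher and 7.02% lower; every measured member of the a-specific and haploid-specific lists is lower, and the spore wall and de novo NAD+ lists hold the longest bars to the right.

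The arrays and the strain were examined first. Median signals of the 6 arrays lay between 9.75 and 9.82, the nicotinamide arrays correlated at 0.9955 with each other across probe sets, and pairs of wild-type arrays at 0.9859 to 0.9978. HIS3, which the genotype lists as deleted, was below the background limit of 2.22 to 2.26 on all 6 arrays, as was MET17, the present name of MET15. LEU2 gave 14.12 and 14.13 in nicotinamide and 14.14 to 14.30 in wild type, and URA3 11.94 and 11.70 against 11.91 to 12.27, which checks nothing where the probes lie outside the altered part of the gene. The a-cell markers MFA1, STE2 and BAR1 were at 12.82 or above on every untreated wild-type array, while the alpha-factor gene MF(ALPHA)1 stayed at 2.08 to 2.09 there.

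The wild-type pairs differed from each other at 4 probe sets, and SIR2 was among them. SIR2, the deacetylase that silences HML, HMR and chromosome ends, gave 9.65 and 9.69 in nicotinamide, against 8.96 and 8.65 on the ML1 arrays and 10.35 and 10.36 on the ML8 arrays. Against all 4 wild-type arrays its difference was 0.09 (adjusted p = 0.944), but it was 0.86 above ML1 (adjusted p = 0.0123) and fell by 0.69 against ML8 (adjusted p = 0.0416). PRP11, a splicing factor gene next to SIR2, followed the same order, with 7.96 and 7.97 in nicotinamide, 7.77 and 7.54 in ML1 and 8.38 in both ML8 arrays. YFR057W, the outermost gene at its end of chromosome VI, gave 7.29 on both nicotinamide arrays, 6.94 and 6.58 on the ML1 arrays and 2.20 and 2.15 on the ML8 arrays, of which the ML8 values lie below background. It was at least 33.0-fold higher in nicotinamide than in ML8 (adjusted p = 1.99e-09) and 0.53 higher on the log2 scale than in ML1 (adjusted p = 0.00825). YER137C was the fourth, at 9.69 and 9.62 in nicotinamide, 9.45 and 8.93 in ML1 and 7.82 and 7.85 in ML8. The labels do not say which pair was grown with the nicotinamide cultures, and these 4 genes were picked after their values were seen.

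Genes that a cells and not alpha cells use to mate fell strongly. MFA1, which encodes a-factor, gave 9.33 and 7.05 in nicotinamide, against 13.90, 13.84, 13.77 and 13.80 in wild type. AGA2, the binding subunit of a-agglutinin, gave 9.25 and 6.46 against 13.16, 13.34, 13.48 and 13.15. The groups lay far apart for both genes, and array B was the lower of the nicotinamide arrays. STE2, the receptor for alpha-factor, gave 11.72 and 9.26 in nicotinamide and 14.66, 14.65, 14.56 and 14.59 in wild type, so that it remained well above background. BAR1, the protease that destroys alpha-factor, fell by 5.06 ± 0.51 (adjusted p = 5.17e-05), ASG7 by 5.37 ± 0.34 and the a-factor exporter gene STE6 by 4.47 ± 0.39. MFA2, a second a-factor gene, fell by 4.23 ± 0.59. All 7 of 7 a-specific genes were called lower, with a median of -5.06, where the median of all probe sets was -0.0045.

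Genes that both haploid cell types express and a/alpha diploids do not fell as well, 13 of 13, with a median of -2.90. FAR1, an inhibitor of G1 cyclin kinase in pheromone response, gave 7.23 and 4.18 in nicotinamide, against 10.79, 11.33, 11.83 and 11.42 in wild type. FUS3, the mitogen-activated kinase of the mating pathway, gave 6.91 and 3.86 against 10.90, 10.74, 10.73 and 10.52. Of the heterotrimeric G protein, the alpha subunit gene GPA1 fell by 4.47 ± 0.33, the gamma subunit gene STE18 by 2.90 ± 0.19 and the beta subunit gene STE4 by 2.68 ± 0.31. STE5, the scaffold of the kinase cascade, fell by 2.97 ± 0.26, and STE12, its transcription factor, by 1.71 ± 0.13. HO, the endonuclease of mating-type switching, gave 7.98 and 6.33 in nicotinamide and 11.24, 11.13, 10.64 and 10.97 in wild type. Genes of DNA repair in the list fell too: NEJ1, a factor of end joining, by 3.13 ± 0.25 and RDH54, a recombination translocase gene, by 2.14 ± 0.12. RME1, a repressor of entry into meiosis, fell by 2.27 ± 0.22 and AXL1, needed for the axial budding of haploids, by 2.58 ± 0.10. The smallest fall was that of AMN1, an antagonist of mitotic exit, at 10.85 on both nicotinamide arrays and 12.11, 11.98, 11.75 and 11.64 in wild type. All 20 genes of both lists were also called when either nicotinamide array was left out.

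**Figure D2:**
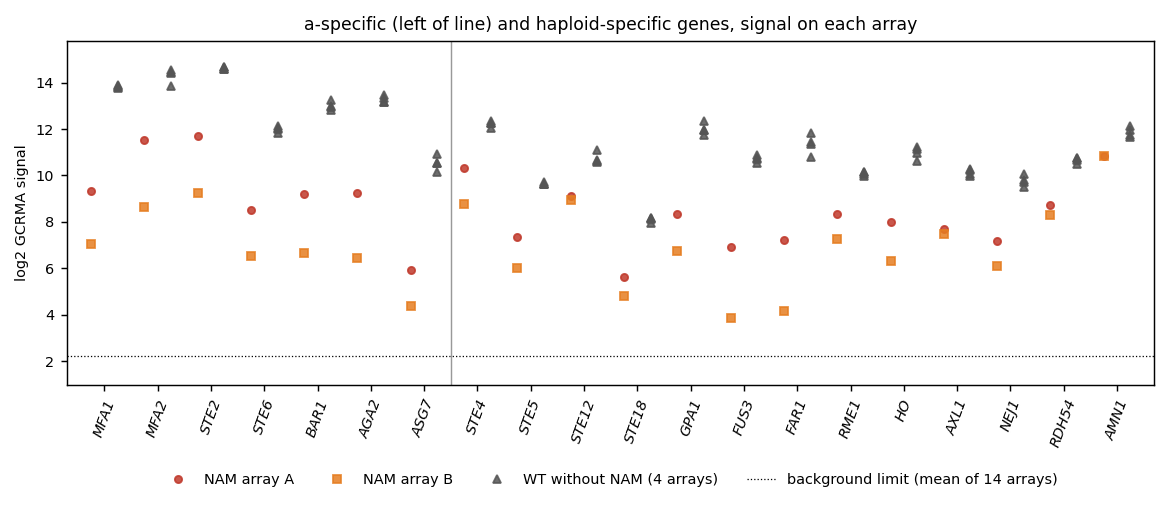
Log2 GCRMA signal of 7 a-specific genes (left of the vertical line) and 13 haploid-specific genes on nicotinamide array A (circles), nicotinamide array B (squares) and 4 wild-type arrays (triangles); the dotted line is the background limit. For each gene both nicotinamide values lie below all wild-type values, and array B lies below array A by up to 3.05 for FAR1 and FUS3.

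The nicotinamide cultures were unequal in these genes. Array B was lower than array A for each of the 7 a-specific genes, with a median difference of 2.46, and for the 13 haploid-specific genes, with a median of 1.10. In the npt1, pnc1, bna1, tna1, ML1 and ML8 pairs the median difference between arrays A and B of the same genes lay between 0.03 and 0.14 for the a-specific list and between -0.07 and 0.11 for the haploid-specific list. In nicotinamide 45 genes differed by more than 1 between the 2 arrays, of which 15 belonged to these 20. Over all genes this number was not unusual: the other pairs had 10 (bna1) to 110 (ML1) such genes, and npt1 had 42. In those pairs 0 of the 20 mating genes were among them. The 12 genes with the largest difference included FAR1, FUS3, MFA2, AGA2, BAR1, STE2, MFA1, STE6 and HO. The remaining 3 were YGR273C (2.12 and 4.65), YJL043W (5.63 and 3.11) and HEM3, of heme synthesis (7.05 and 5.40), none of which passed the test against wild type. Among the rises described below, the de novo NAD+ genes had a median change of 2.20 on array A and 2.26 on array B. The 57 genes of mid-sporulation and the spore wall had 1.23 and 1.72, and 20 of them were lower on array B. The lists that make up these 57 did not share that order. Meiotic division genes and kinases had 0.85 on array A and 0.90 on array B. The prospore membrane list had 1.21 and 1.01, and the spore wall list 2.85 and 2.78. The difference between the cultures rests on 1 array each, and its source was not tested.

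Alpha-cell transcripts did not rise as a group. STE3, the receptor for a-factor, gave 7.71 and 7.96 in nicotinamide, against 2.46, 2.78, 3.35 and 2.52 in wild type, a 33.4-fold difference (5.06 ± 0.21, adjusted p = 4.02e-08). The npt1 deletion gave 7.66 and 7.58 for STE3, not told apart from nicotinamide (0.21 ± 0.24, adjusted p = 0.646). The other 4 of 5 alpha-specific genes did not pass the test. SAG1, alpha-agglutinin, gave 9.17 and 9.45 against 8.94, 9.20, 9.11 and 9.22, and AFB1, a blocker of a-factor, gave 10.25 on both arrays against 9.26, 9.62, 10.04 and 9.98. AFB1 was higher in the npt1 deletion, at 11.18 and 11.20 (nicotinamide minus npt1 -0.94 ± 0.22, adjusted p = 0.0225). The alpha-factor gene MF(ALPHA)1 gave 2.29 and 2.09, at the background limit. HMLALPHA1, on a probe set of shared design, gave 2.02 on both nicotinamide arrays and 2.02 to 2.03 in wild type, below background throughout. HMRA1 gave 10.15 and 10.35 against 10.26, 9.91, 10.13 and 10.21, and MATa cells also carry this sequence at MAT. A probe set for the alpha2 gene of HML was not analysed here.

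Targets of Ste12, which pheromone signalling activates, fell in 13 of 21 cases and rose in 1, with a median of -0.95. Among all probe sets 7.02% were lower and 8.88% higher. FUS1, needed for cell fusion, gave 8.16 and 7.50 in nicotinamide and 11.17, 10.89, 10.84 and 10.55 in wild type. SST2, which desensitises cells to pheromone, fell by 3.35 ± 0.32, AGA1, the anchor of a-agglutinin, by 3.19 ± 0.17, and TEC1, a partner of Ste12 in filamentous growth, by 2.70 ± 0.23. PRM6 fell by 2.80 ± 0.48 and PRM1, needed for membrane fusion, by 2.45 ± 0.26. FIG1, which takes part in mating and calcium uptake, was the exception at 8.96 and 9.16 against 8.81, 7.61, 7.61 and 7.0 (1.30 ± 0.39, adjusted p = 0.0483). Shared kinases of the cascade moved less: STE20 fell by 0.31, while STE11 differed by 0.12 and STE7 by 0.09, neither called. KSS1, a kinase related to Fus3, fell by 1.22 ± 0.18 and DIG1, a repressor of Ste12, by 1.31 ± 0.10. In all, 3 of these 13 pathway genes outside the haploid-specific list were lower and none higher.

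Among genes that place the bud, AXL2, an axial landmark, gave 10.23 and 10.12 in nicotinamide and 11.01, 11.23, 11.23 and 11.04 in wild type. The bipolar landmark genes moved in opposite directions, BUD8 falling by 0.69 ± 0.07 and BUD9 rising by 0.74 ± 0.10. Of 11 bud-site genes 3 fell, RAX2 being the third, and 1 rose, where 7.02% of all probe sets were lower and 8.88% higher. BUD3 (-0.16) and BUD4 (-0.12), of the axial pathway, did not pass.

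Genes beside the mating genes were examined for the same falls, a choice made after their values were seen. Of 34 measured neighbours of the 20 genes, 7 were lower and 4 higher, where 7.02% and 8.88% of all probe sets were. GYP8, which shares an upstream region with STE2 by gene order and orientation, gave 9.29 and 9.07 in nicotinamide and 11.18, 11.04, 10.87 and 10.85 in wild type. ICS2, placed likewise beside AMN1, gave 5.22 and 4.39 against 6.92, 7.03, 6.81 and 6.57, and MGM1, a mitochondrial fusion gene beside STE4, gave 8.83 and 8.79 against 9.84, 9.87, 9.78 and 9.72. These make up 3 of the 6 measured neighbours that are transcribed away from a mating gene, and none of the 6 was higher. Elsewhere NQM1 beside RME1 rose by 2.16 and YIL014C-A beside BAR1 by 2.06.

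Regulators of entry into meiosis were called in 1 of 17 cases, where 15.9% of all probe sets were called. IME4, an mRNA methyltransferase needed for meiosis, gave 5.32 and 5.91 in nicotinamide, against 3.65, 2.73, 2.43 and 2.39 in wild type (2.81 ± 0.31, adjusted p = 9.86e-05). In the npt1 deletion it gave 2.37 and 2.35, and nicotinamide was 3.25 ± 0.36 higher than that (adjusted p = 0.000231). IME1, the master activator, gave 4.03 and 5.17 against 3.57, 3.65, 2.96 and 3.69, above the wild-type range without passing the test (adjusted p = 0.0582). Early meiotic genes were higher in 3 and lower in 1 of 24, a share near the background: HFM1 rose by 0.86, REC104 by 0.71 and DMC1 by 0.44, while SPO11, the recombination endonuclease gene, gave 3.93 and 4.05 against 5.60, 5.24, 5.02 and 5.44. After quantile normalization none of these 3 was higher: DMC1 was lower, by 0.45, and neither HFM1 (-0.14) nor REC104 (0.02, adjusted p = 0.961) passed. NDJ1, a meiotic telomere protein gene, was below background on both nicotinamide arrays and 4.41 to 5.86 in wild type, at least 7.80-fold lower (adjusted p = 6.24e-05).

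Genes of mid-sporulation and the spore wall rose, 39 of 57 in all, with 4 lower, where 8.88% of all probe sets were higher and 7.02% lower. Their median was 1.31, or 1.17 with genes at the floor in wild type set to their lower bound. Of the spore wall list 16 of 18 rose, with a median of 2.79. CDA1, a chitin deacetylase, gave 8.81 and 9.22 in nicotinamide and 2.24, 2.29, 2.24 and 2.30 in wild type, and LDS2, a lipid droplet protein of spores, gave 7.33 and 7.29 against 2.13 to 2.14. Wild type was below the background limit for LDS2 and just above it for CDA1. CDA2, a second chitin deacetylase gene, gave 2.75 and 4.08 against 2.10 to 2.11 and rose less, at least 2.25-fold. DIT1, which makes the dityrosine precursor, gave 5.98 and 5.40 against 2.58, 2.92, 2.64 and 3.44, while DIT2, the next enzyme, gave 2.41 and 3.29 against 2.12 to 2.14. GSC2, a glucan synthase gene with high signal before treatment, gave 12.15 and 12.13 against 11.08, 11.13, 11.00 and 11.12. GAS4, a glucan-remodelling enzyme gene, rose by 3.80 ± 0.17 and SPR1, an exoglucanase gene, by 2.35 ± 0.18. SPO19 and SHC1 were the 2 not called.

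**Figure D3:**
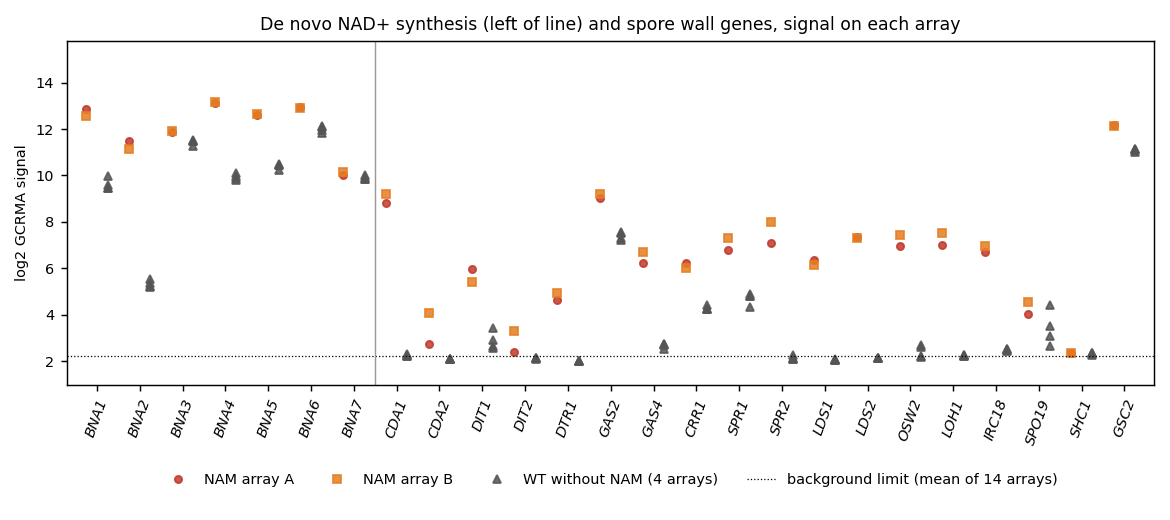
Log2 GCRMA signal of 7 de novo NAD+ synthesis genes (left of the vertical line) and 18 spore wall genes on nicotinamide array A (circles), nicotinamide array B (squares) and 4 wild-type arrays (triangles); the dotted line is the background limit. Both nicotinamide values of CDA1 exceed 8.8 where the wild-type arrays lie at 2.24 to 2.30, while SHC1 is near the limit in both groups.

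The prospore membrane list rose in 9 of 15 genes and fell in 1, where 8.88% of all probe sets were higher and 7.02% lower. SMA1 gave 7.13 and 7.59 in nicotinamide and 2.04 to 2.05 in wild type, at least 34.7-fold higher. The septin genes SPR3 and SPR28 rose by 5.42 ± 0.18 and 2.44 ± 0.13, and the structural genes of the meiotic spindle pole SPO74, SPO21 and MPC54 by 2.27, 2.91 and 0.69. SPO71 fell by 0.47; it lies next to STE5. Meiotic division genes and kinases rose in 16 of 26 cases. MAM1, of the monopolin complex that orients sister kinetochores, gave 8.12 and 8.16 against 2.37 to 2.38 (5.77 ± 0.05, 54.5-fold). SPO75 gave 10.22 and 10.65 against 5.66, 5.31, 4.80 and 5.33, and MIP6, an RNA-binding protein gene, rose by 4.91 ± 0.19. NDT80, the activator of mid-sporulation genes, rose by 1.03 ± 0.18. Among the sporulation-specific SPS genes, SPS2 rose by 0.31 and SPS4 by 1.74. The 3 members that fell, CLB1, CLB3 and SPS18, were at -1.20, -0.23 and -0.39, and the first 2 are mitotic cyclin genes as well. CLB3 was not called against ML8 alone or in the fit of the 6 arrays.

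Of the 7 genes listed for NAD+ synthesis from tryptophan 6 rose, with a median of 2.23. BNA2, the first enzyme, gave 11.49 and 11.15 in nicotinamide, against 5.21, 5.25, 5.38 and 5.56 in wild type, a 62.8-fold difference. BNA4 gave 13.10 and 13.16 against 9.80, 9.90, 10.10 and 9.97, BNA1 12.85 and 12.55 against 9.47, 9.45, 9.99 and 9.59, and BNA5 12.61 and 12.66 against 10.47, 10.46, 10.46 and 10.23. These 4 rose at least 2-fold. BNA6, the transferase that leads into the shared end of the pathway, rose by 0.94 ± 0.08 and BNA3 by 0.46 ± 0.08. BNA7 gave 10.03 and 10.16 against 10.01, 9.94, 9.83 and 9.86 and did not pass (adjusted p = 0.122). Of 23 salvage, transport and turnover genes 4 rose and 1 fell, where 8.88% of all probe sets were higher and 7.02% lower. TNA1, the nicotinic acid permease, gave 14.50 and 14.52 against 12.26, 12.54, 12.56 and 12.61, and NRT1, which takes up nicotinamide riboside, 10.09 and 10.20 against 7.86, 8.10, 8.09 and 8.10. PNP1, a nucleoside phosphorylase gene, fell by 0.25, but was not called against ML8 alone or in the fit of the 6 arrays. NPT1 (0.04) and PNC1, the nicotinamidase gene (-0.49, adjusted p = 0.0752), did not pass.

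The transcripts of the silencing proteins themselves gave 0 calls by limma among 20 sirtuin and silencing genes, with 2 at an unadjusted p under 0.05. Over all 5449 genes 1511 had an unadjusted p under 0.05, and 15.9% of all probe sets were called. For SIR2 the direction depended on the wild-type pair, 0.86 above ML1 and 0.69 below ML8, as described above. HST1 gave 10.78 on both nicotinamide arrays, against 11.18, 10.96, 10.78 and 10.83 in wild type, and SUM1 9.91 and 9.97 against 10.34, 10.18, 9.91 and 9.97. RIF2, a telomere protein gene, had the largest difference, with 4.40 and 4.48 against 6.25, 5.18, 4.67 and 5.36 (adjusted p = 0.0983).

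Genes of daughter-cell separation, many of them for enzymes that open the septum after mitosis, rose in 9 of 14 cases and fell in 1. Their median was 0.74, and among all probe sets 8.88% were higher and 7.02% lower. CTS1, the chitinase that cuts mother from daughter, gave 12.25 and 12.29 in nicotinamide, against 9.14, 9.42, 9.53 and 9.18 in wild type. DSE1 gave 7.08 and 7.03 against 2.53, 2.54, 2.76 and 2.75, a 21.3-fold difference, and DSE2 gave 10.55 and 10.14 against 4.97, 5.87, 5.86 and 5.80, a 26.4-fold difference. SCW11, a glucanase-like wall protein gene, gave 10.75 and 11.08 against 7.68, 7.92, 7.97 and 7.69. For these 4 genes nicotinamide arrays A and B differed by at most 0.41. PRY3 rose by 2.50 ± 0.31, the glucanase gene DSE4 by 1.45 ± 0.12, DSE3 by 0.75 ± 0.10 and EGT2 by 0.62 ± 0.06. ASH1, the daughter-specific repressor of HO, fell by 0.71 ± 0.17. SIC1, CBK1, SUN4 and PIR1 were not called.

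In the direct comparison, nicotinamide differed from npt1 at 497 probe sets (9.04%), with 291 higher (5.29%) and 206 lower (3.75%). Of the 14 separation genes 9 were higher in nicotinamide than in npt1. DSE2 gave 5.86 and 5.58 in npt1, and nicotinamide was 4.62 ± 0.29 higher (adjusted p = 4.85e-06). DSE1 gave 2.75 and 2.68 there, CTS1 9.42 and 9.18, and SCW11 7.51 and 7.38, all close to untreated wild type. HPF1, a heavily glycosylated wall protein gene, was of the same kind, with 12.95 and 13.10 in nicotinamide, 9.74 and 9.42 in npt1 and 9.36, 9.20, 9.59 and 9.28 in wild type. NCA3, a SUN family gene, gave 10.10 and 9.86 in nicotinamide, 7.20 and 6.61 in npt1 and 6.49, 7.37, 8.53 and 7.62 in wild type.

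**Figure D4:**
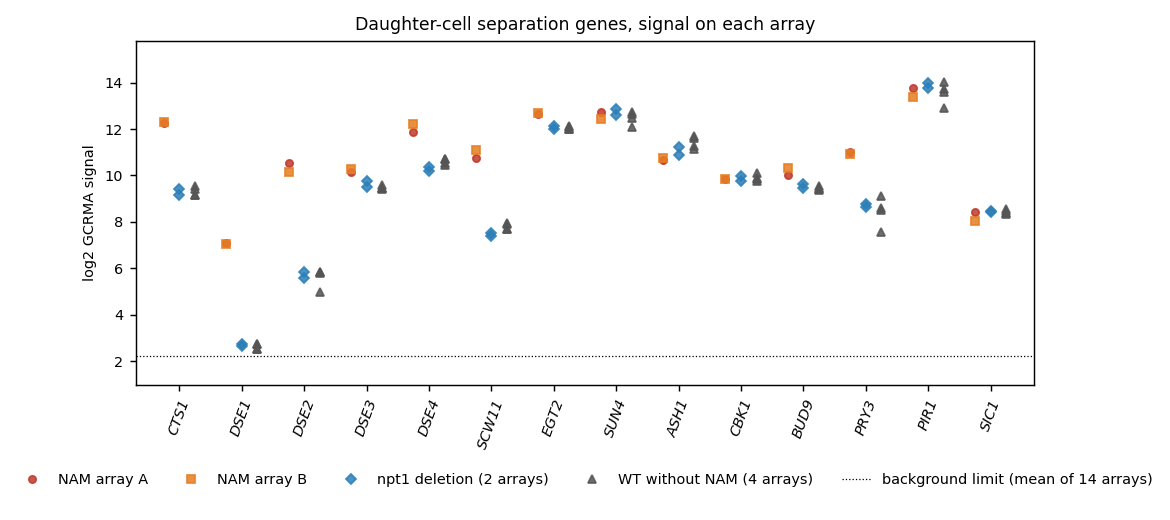
Log2 GCRMA signal of 14 daughter-cell separation genes on nicotinamide array A (circles), nicotinamide array B (squares), 2 arrays of the npt1 deletion (diamonds) and 4 wild-type arrays (triangles); the dotted line is the background limit. Nicotinamide values of CTS1, DSE1, DSE2 and SCW11 stand above those of npt1 and of wild type, which lie close together.

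All 20 a-specific and haploid-specific genes were also lower in nicotinamide than in npt1, where MFA1 gave 13.76 and 13.69, FAR1 11.38 and 11.19 and FUS3 10.79 and 10.66. Of the de novo NAD+ synthesis genes 1 of 7, BNA4, was higher in nicotinamide than in npt1, with a median difference of 0.20 over the list. BNA2 gave 11.35 and 11.40 in npt1 and differed by -0.05 ± 0.15 (adjusted p = 0.876). Of the 57 sporulation genes 20 were higher in nicotinamide than in npt1 and 3 lower, with a median difference of 0.36. LDS1 gave 6.38 and 6.16 in nicotinamide and 3.75 and 3.59 in npt1, and SMA1 7.13 and 7.59 against 5.33 and 5.78. CDA1, at 8.61 and 8.74 in npt1, did not pass (0.34 ± 0.11, adjusted p = 0.100). The npt1 arrays lack NPT1 itself, at 2.18 and 2.19.

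Against the pnc1 deletion, which lacks the enzyme that removes nicotinamide, 849 probe sets (15.4%) differed, and PNC1 itself gave 2.17 and 2.18 there. CDA1, BNA2, MAM1 and STE3 were among the 10 largest rises and FAR1, AGA2 and MFA1 among the 10 largest falls. SNO1, a vitamin B6 gene, gave 5.06 and 5.13 in nicotinamide, 4.89 and 4.50 in pnc1 and 2.53, 2.46, 2.89 and 2.69 in wild type, and nicotinamide and pnc1 were not told apart (0.40 ± 0.20, adjusted p = 0.225). SNZ1, its divergent partner, gave 9.74 and 9.73 in nicotinamide, 9.71 and 9.84 in pnc1 and 8.52, 8.63, 8.49 and 8.60 in wild type. SNO1 and SNZ1 were both lower in npt1 than in nicotinamide, at 3.03 and 2.46 for SNO1.

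Genes near chromosome ends rose more often the nearer they lay to the end. Of the 98 measured genes that are 1 of the 5 outermost of their chromosome end, 44 (44.9%) were higher and 3 lower. At ranks 6 to 10 the share higher was 28.5% of 137, at ranks 11 to 20 it was 12% of 291, and further in it was 6.63% of 603 and 7.53% of 4317, near the 8.88% of all probe sets. Shares of lower genes did not follow this order, at 3.06%, 2.92%, 8.93%, 6.80% and 7.23%. Of the 98 outermost genes, 40 have probe sets of shared design, which cannot tell close relatives apart. Of the 235 genes of ranks 1 to 10, 83 were higher, 89 against ML1 alone and 73 against ML8 alone. Directly against npt1, 21.4% of the 5 outermost genes were higher in nicotinamide, 13.9% at ranks 6 to 10 and 4.54% beyond rank 40. In the npt1 deletion against wild type 26 of the 98 were higher and 1 lower, where 3.56% of all probe sets were higher and 0.637% lower.

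**Figure D5:**
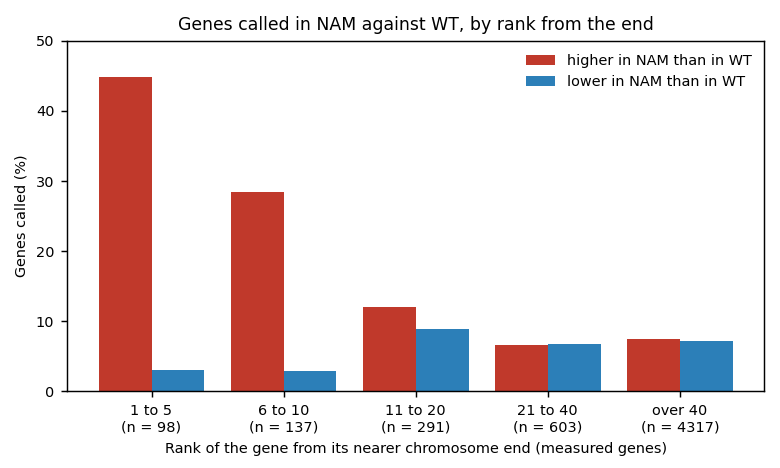
Percent of measured genes called higher (red) or lower (blue) in nicotinamide against wild type, by the gene's rank from its nearer chromosome end; n is the number of measured genes. The share higher is 44.9% for the 5 outermost genes and 7.53% beyond rank 40.

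At the ends of chromosome III, which carries HML, MAT and HMR, the genes outside HML and HMR moved unevenly. GEX1, a glutathione exchanger gene at the left end (shared probe set), gave 5.05 and 5.40 in nicotinamide, against 2.33, 2.34, 2.35 and 2.35 in wild type. YCR108C, the outermost gene of the right end, gave 4.68 and 4.52 against 2.10 to 2.13, and ADH7, an alcohol dehydrogenase gene, 6.31 and 6.56 against 4.27, 4.28, 4.36 and 4.29. All 3 were higher than in npt1 too, by 2.59, 2.01 and 1.86. Between them AAD3 (0.42) and RDS1 (0.03) did not pass, and of the genes between HML and rank 10, CHA1, a serine deaminase gene, rose by 1.03. At other ends SEO1, a permease gene, gave 8.28 and 8.17 against 3.57, 3.51, 3.46 and 3.70. Of 9 COS genes, which lie near chromosome ends and act in endosomal sorting, 6 rose, COS8 most (1.42 ± 0.14), and 3 did so without nicotinamide array B. Of 13 seripauperin PAU genes 7 rose, all 7 on shared probe sets. For both families the share higher among all probe sets was 8.88%. The flocculins FLO1, FLO9, FLO10 and FLO11 were not called, with differences of 0.45, -0.01, 0.48 and -0.33.

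Transport and drug-resistance genes rose in 7 of 18 cases, where 8.88% of all probe sets were higher. RSB1, a sphingoid base transporter gene, gave 11.91 and 12.23 in nicotinamide and 9.03, 10.20, 10.08 and 9.49 in wild type, and RTA1, its relative, 11.23 and 11.45 against 8.85, 9.28, 9.52 and 9.65. PDR10 rose by 1.06 ± 0.11 and SNQ2, another multidrug pump gene, by 0.52 ± 0.06. PDR5, the best known of the pump genes, did not pass (-0.07). HXT14, a distant member of the hexose transporter family, gave 7.39 and 7.51 against 2.29, 2.34, 2.29 and 2.37, with 5.45 and 5.19 in npt1 (direct difference 2.13 ± 0.08). HXT9 and HXT11, also implicated in drug resistance, rose by 3.36 and 1.69, while HXT4, a glucose transporter gene, fell by 1.19. HXT4 was not called against ML1 alone or against ML8 alone. TIR3, a wall mannoprotein gene, gave 14.02 and 14.14 against 12.26, 12.42, 12.25 and 12.43, while DAN1 and TIP1 fell by 0.93 and 0.50.

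Genes of allantoin use rose in 5 of 14 cases and fell in 2, where 8.88% of all probe sets were higher and 7.02% lower. DAL1, allantoinase, gave 7.03 and 7.02 in nicotinamide and 2.08 to 2.09 in wild type, at least 27.5-fold higher. DAL4, the allantoin permease, gave 6.56 and 7.09 against 3.29, 2.69, 3.26 and 3.38. DAL80, a repressor of this group, rose at least 4.98-fold, DCG1 by 2.02 and DAL3 by 1.78. DAL82 (-0.41) and GDH2 (-0.75) were the 2 lower ones.

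In several nutrient lists the number of calls changed when 1 nicotinamide array was left out. Over all probe sets 8.88% were higher and 7.02% lower. Sulphur and methionine genes rose in 13 of 30 cases with a median of 0.49, and MET3, ATP sulphurylase, gave 11.84 and 11.77 against 10.59, 10.15, 10.81 and 10.58. Without nicotinamide array B, 6 of the 30 were called. Iron regulon genes rose in 12 of 25 cases, FIT1, a wall mannoprotein of siderophore retention, by 3.62 ± 0.26 and FET4, a low-affinity metal transporter gene, by 1.72 ± 0.11. Leaving out either nicotinamide array left 4 called, and fitting only the 6 arrays left 5. FET4 gave 8.45 and 8.09 in npt1 and was 2.11 ± 0.13 higher in nicotinamide. Ergosterol genes rose in 10 of 23 cases by 0.19 to 0.59, led by ERG26, and 2 were called without array B, 6 without array A and 2 in the fit of 6 arrays. Of the zinc regulon ZRT1, INO1 and ZRT3 rose, by 0.66, 0.81 and 0.22, and of the copper genes CTR3 rose by 1.35. CTR3 was not called against ML1 alone, and ZRT3 was not called against either wild-type pair alone.

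For the lists that follow, 8.88% of all probe sets were higher and 7.02% lower. Of 17 genes of DNA damage and ribonucleotide reductase 6 were higher and 1 lower. HUG1, a checkpoint target, gave 12.10 and 12.14 in nicotinamide, against 9.13, 9.59, 10.17 and 9.79 in wild type, and the DNA glycosylase gene MAG1 8.08 and 8.30 against 7.04, 6.95, 6.98 and 7.06, while DDR48 gave 8.98 and 9.10 against 10.67, 10.39, 10.13 and 10.45. Cyclin genes and their regulators fell in 5 of 16 cases and rose in 1. CLB1 gave 10.40 and 10.14 against 11.58, 11.58, 11.40 and 11.35, CLN2 fell by 0.40 and PCL2 by 0.69, and CLB5, an S-phase cyclin gene, rose by 0.38. CLN2, PCL2 and CLB3 were not called in the fit of the 6 arrays, and CLN2 and CLB3 were not called against ML8 alone. Of 17 thiamine genes 6 were higher and 2 lower; THI13 (shared probe set) rose by 3.08 and THI22 fell by 0.81; THI22 lies next to AXL1. Among falls outside the mating lists, YGR109W-B gave 7.84 and 7.85 against 11.49, 11.03, 11.15 and 10.77, and YIL082W-A, on a shared probe set, 8.97 and 8.64 against 12.39, 12.08, 12.03 and 11.70. The nicotinamide arrays A and B differed by at most 0.33 for both.

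Several lists, most of them of housekeeping genes, gave 0 calls by limma. Among 24 ribosomal protein genes none had an unadjusted p under 0.05, and RPS15 gave 15.58 and 15.56 in nicotinamide and 15.50, 15.60, 15.56 and 15.61 in wild type. Of 32 ribosome biogenesis genes 2, of 32 proteasome genes 3, of 15 purine genes 3 and of 7 biotin genes 1 had an unadjusted p under 0.05. Across all 5449 genes 1511 had one, and 15.9% of all probe sets were called. Medians of the lists in this paragraph lay between -0.08 and 0.07.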

How the data were processed

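Total RNA was labelled and hybridised to Affymetrix Yeast Genome 2.0 arrays. The authors deposited 1 table of log2 signal per probe set, made with GCRMA, per the submitters' processing notes; which version was not stated. GCRMA as usually run corrects background, normalizes across arrays by quantiles and summarises probes, so a shift common to most genes would be removed and low signals collapse to a floor. The values were used as deposited, and the number of arrays, not depth, limits precision. Probe sets were paired with genes by the supplied annotation and named from RefSeq R64, used only for names and gene order. Of all probe sets 5498 matched 1 S. cerevisiae gene, 1746 had a gene outside that reference, 3470 had no gene given, 1 had several and 213 were controls. The 95th percentile of the 1746 gave the background limit of each array, and a fold against a group wholly below it is a lower bound against the limit. Where a gene had more than 1 probe set, that of highest mean signal stood for it. Gene order used protein-coding genes only.

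Differences were fitted with limma 3.58.1 (lmFit, eBayes) in R 4.3.3 on all 14 arrays in 6 groups, the 4 wild-type arrays forming a single group, with 8 residual degrees of freedom. P values were adjusted over all 5498 probe sets by Benjamini-Hochberg within each comparison and called under 0.05, with no minimum fold. The 45 lists, with 743 measured genes, came from textbook knowledge. The comparison, members and lists were chosen with earlier results of these data known, and list counts are descriptions. Named were the 20 largest rises and falls with arrays outside the wild-type range, up to 6 called members of each list or 2 of highest signal where none was called, every measured member of lists of at most 13, the 12 largest differences between the nicotinamide arrays, and the 10 largest in each direction against npt1 and pnc1; other genes were named after their values were seen. The text gives values for a part of these. Scripts were tested on simulated data. Alternatives were 1 wild-type pair, a replicate block, the 6 arrays alone, quantile normalization, median centring, a filter on dim probe sets (5412 kept), a variance trend, robust variances and leaving out each array. Promoter motifs had been planned and were not run.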

Additional observations from a re-analysis of the deposited data

Results flagged for a closer look

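Among the 281 named genes, 14 had 1 wild-type array far from the other 3, about the 14 that chance gives, and for 9 of the 14 that array was ML1 A. ML1 A correlated with the other wild-type arrays at 0.9859 to 0.9923, and those with each other at 0.9956 to 0.9978. Without ML1 A, 1156 probe sets were called in nicotinamide against wild type, where 874 were with it. The wild-type arrays are controls, so each value enters the wild-type mean of a comparison. ML1 A was higher than the other wild-type arrays for BUD17 (10.47), BUD7 (10.38), NPT1 (12.54) and RSR1 (12.03), of which none was called. It was lower for DSE2 (4.97, others 5.80 to 5.87), ERG26 (11.57), NRT1 (7.86), FLO9 (9.24) and YJL043W (2.00, others 3.08 to 3.09), of which DSE2, ERG26 and NRT1 were called higher in nicotinamide. ML1 B was higher for PNP1 (12.01), and ML8 A was higher for ADH2 (7.22) and lower for SPR3 (2.57). ML8 B was lower for BNA5 (10.23) and higher for STE5 (9.74). The cause of these differences was not tested.

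Probe sets to which the annotation gives no gene lay outside the comparisons. Fitted together with the others, 24 of 3470 were higher in nicotinamide and 7 lower (0.893% called), and 10 were at least 2-fold higher and 2 at least 2-fold lower. They carry no name here, and how many of the 3470 can report an S. cerevisiae transcript is not known. The 0.893% is therefore not a rate for genes of this yeast.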

How the results depend on the processing

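Of 186 named genes called in nicotinamide against wild type, 140 to 184 were also called under each alternative, fewest without nicotinamide array B (140), without array A (148) and with the 6 arrays alone (150). Quantile normalization reversed DMC1 to -0.45 (adjusted p = 0.00770) and HFM1 to -0.14 (adjusted p = 0.692), and moved the share of calls that were higher to 44.5%, against 55.8% as deposited and 66% after median centring. The 874 calls became 533 with the 6 arrays alone, 519 of them shared, and 458 to 1156 when 1 array was left out. Leaving out 1 array gave 297 to 605 higher and 161 to 551 lower calls, and the 6 arrays alone 196 lower. Against npt1 this range was 262 to 399, and against pnc1 490 to 709. Called list members when 1 array was left out were 2 to 11 for ergosterol, 4 to 12 for iron, 6 to 14 for sulphur and methionine and 3 to 6 for COS genes, and with the 6 arrays alone 2 for ergosterol and 5 for iron. The causes were not tested beyond the smaller number of arrays. Counts for the mating, sporulation, NAD+ and separation lists stayed within 1.5 times. With the replicate letter as a block 1045 were called, 863 of them shared. The labels do not say what the letters A and B share, and the main fit treated them as names. The A minus B differences of nicotinamide correlated at 0.391 with those of npt1 and of ML8. The value was 0.315 with pnc1, 0.262 with bna1, 0.114 with tna1 and -0.236 with ML1. Whether arrays of the same letter share an effect was not tested. In all, 2 cultures carry every nicotinamide value, and signal near the background limit holds only bounds.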

Other observations

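Genes of phosphate starvation were higher in nicotinamide in 5 of 17 cases and lower in none, against 8.88% and 7.02% of all probe sets. PHO89, a sodium-coupled phosphate transporter gene, gave 6.28 and 6.63 in nicotinamide and 3.20, 3.35, 3.68 and 3.46 in wild type. PHM6 gave 9.80 and 9.38 against 6.65, 6.64, 7.34 and 6.85, and VTC3, of polyphosphate synthesis, 11.60 and 11.57 against 10.60, 11.00, 11.04 and 11.28. VTC3 was not called against ML8 alone or in the fit of the 6 arrays. Of the thiamine list THI4 gave 8.63 and 8.71 against 6.69, 6.74, 6.86 and 6.82, and THI73, a carrier of the plasma membrane family, 7.74 and 7.97 against 5.84, 6.12, 5.70 and 5.83.

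Among 26 genes of the dehydrogenase list 4 were higher and 1 lower. FDH1, formate dehydrogenase, gave 4.73 and 5.41 in nicotinamide and 2.71 to 2.73 in wild type, and ALD6, an aldehyde dehydrogenase, gave 13.39 and 13.49 against 13.87, 14.13, 14.36 and 13.79. Of 35 genes of the respiratory chain CYC7, the hypoxic cytochrome c, was higher and COR1 lower. Among 27 Gcn4-controlled genes 4 were higher, ARG1 most, at 12.34 and 12.46 against 11.88, 11.30, 11.34 and 10.99. ALD6 and COR1 were not called against ML1 alone, against ML8 alone or in the fit of the 6 arrays. ARG1 was not called against ML1 alone or with the 6 arrays, and CYC7 was not called against ML1 alone. Of 32 stress and reserve carbohydrate genes 4 were higher and 2 lower, near the 8.88% and 7.02% of all probe sets, and HSP12 gave 6.61 and 6.54 against 5.43, 5.56, 5.44 and 5.32.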
